A study of Homo sapiens with 6 samples.

Results

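The 78 rows described here carry the symbols of genes for copying and repairing DNA. They were chosen from the 10191 transcript rows of the table by the spelling of the gene symbol alone, with prefixes such as MCM, GINS, POL, RFC, RAD, ERCC, XRCC and FANC, and they belong to 73 of the table's 9717 symbols. The rule itself uses no expression value, but it was chosen with earlier results of these data known. The study compared Huh7 cells, a human hepatocellular carcinoma line, with a short hairpin RNA against ABL1 and Huh7 cells with a scrambled hairpin. Both groups were grown in DMEM, selected with puromycin and sequenced as total RNA 1 week after selection, with 3 libraries per group. All libraries come from 1 cell line, and the sources used here give neither the hairpin's sequence nor the number of hairpins. No label ties the libraries of a group to separate cultures. The p-values therefore describe the spread among the 6 libraries, and that spread may be technical.

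A cell copies its genome once per division. In G1 the origin recognition complex, CDC6 and CDT1 load the MCM helicase onto origins (licensing). In S phase the GINS complex and further factors turn the helicase on, and polymerases, the sliding clamp and its loaders, RPA and the lagging strand enzymes copy the strands. E2F transcription factors, released from RB proteins by cyclin-dependent kinases, switch many of these genes on before S phase. Repair genes act on base damage, bulky lesions, crosslinks, mismatches and breaks, and many of them are expressed through the whole cell cycle. ABL1 encodes a non-receptor tyrosine kinase that signals in the cytoplasm and in the nucleus.

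The knockdown was checked on ABL1 itself, which has 2 rows. NM_007313, the more abundant of them in the scrambled libraries, had 13.7, 10.2 and 9.28 normalized counts in the ABL1 knockdown libraries, against 73.4, 71.7 and 71.3 in the scrambled libraries (log2 change -2.62, SE 0.26, limma adjusted p = 4.11e-06). The second row, NM_005157, had 17.6, 19.2 and 24.8 normalized counts in the knockdown, against 9.17, 6.72 and 10.3 in the scrambled libraries (log2 change 1.15, SE 0.36, limma adjusted p = 0.0180). A normalized count is the number of reads of a row after the authors' scaling between libraries, and a log2 change is the knockdown mean minus the scrambled mean of log2(normalized count + 1). Libraries held 6651413 to 7952645 reads in the knockdown and 7713451 to 10487862 reads in the scrambled group. The test took rows averaging 10 or more normalized counts, 8600 in the whole table.

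Of the tested replication rows 19 of 30 fell in the ABL1 knockdown and none rose, and of the tested repair and checkpoint rows 10 of 36 fell and 4 rose, where 27.4% of all tested rows fell and 24.5% rose. The members together took 0.539%, 0.547% and 0.539% of the reads counted in the table's rows in the knockdown libraries, against 0.671%, 0.702% and 0.672% in the scrambled libraries. Their normalized counts summed to 41922, 41115 and 41600 in the knockdown and to 58701, 60715 and 57638 in the scrambled libraries. The 2 groups of sums did not overlap. Sums over all rows of the table did not overlap either, at 7.52e+06 to 7.78e+06 in the knockdown and 8.57e+06 to 8.74e+06 in the scrambled libraries. The members' sums include PARP1 and RAD21, which stand outside the replication roles. Their means were 4107 and 3149 in the knockdown and 8059 and 6296 in the scrambled libraries. In this bulk RNA, fewer cells in S phase and less RNA per cell cannot be told apart.

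Of the 78 rows, 73 (70 symbols) passed the filter on low counts, and CHEK1, ORC2, POLD2 and second transcripts of RAD52 and RFC3 did not. Among the 73, 32 fell (43.8%) at a limma adjusted p below 0.05, where 27.4% of all tested rows fell, and 5 rose (6.85%), where 24.5% of all tested rows rose. The median log2 change of the tested members was -0.31 (interquartile range -0.77 to 0.13), against 0.0018 over all tested rows. By at least 2-fold, 12 members fell (9.02% of all tested rows did) and 0 rose (7.93% of all tested rows did). The knockdown libraries lay entirely below the scrambled ones in 37 members, where 30.7% of all tested rows were so, and entirely above them in 8, where 28.2% were. The groups were apart in all 37 called members and in 8 of the 36 without a call. Calls and separation rest on the same libraries, and this split was not computed over all tested rows. Scaling every library to the same total moved the median of all tested rows to 0.18, and on that scale 27 members fell and 11 rose, against 19.6% and 34.6% of all tested rows. The members' median then was -0.14, and its distance from the median of all rows was -0.31 with either scaling. Changing the scale factors moves all rows by nearly the same amount, so this distance could hardly differ.

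Members that act in replication, from licensing to nucleotide supply and the E2F factors, fell in 19 of 30 tested rows and rose in 0, with a median log2 change of -0.54, and 11 rows had no call. With equal totals 18 of these fell, and ORC5 and E2F4 rose. Members of repair and checkpoint fell in 10 of 36 tested rows (27.8%), which is close to the 27.4% of all tested rows, and rose in 4 (11.1%), against 24.5% of all tested rows. Their median was -0.01, and with equal totals 6 fell and 8 rose. The remaining 7 tested rows, RAD21 and the rows matched by spelling alone, held 3 falls and 1 rise. Matched by spelling alone means that a row was in none of the role lists used here, which does not exclude a part in repair. The difference between the replication and the repair rows was not tested. These counts cover part of each step: of the genes listed for a role, 8 of 14 for licensing, 4 of 10 for firing, 7 of 12 for the polymerases, 6 of 13 for clamp and fork, 2 of 4 for nucleotide supply and 5 of 8 E2F factors had a row, and the others were not analysed here.

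**Figure D1:**
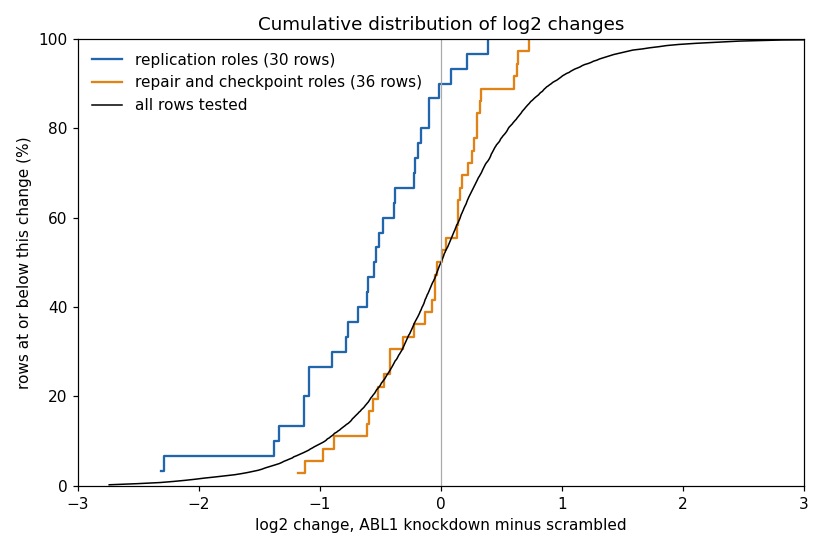
Cumulative share of tested rows (y axis, %) at or below each log2 change, ABL1 knockdown minus scrambled (x axis), for replication roles (30 rows), repair and checkpoint roles (36 rows) and all 8600 rows tested. The replication curve lies left of the curve of all rows through most of its range, with its median at -0.54, and the repair curve crosses 50% close to 0.

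Licensing genes with a called change all fell, and these were MCM6, CDT1, CDC6 and MCM5 among 7 tested. MCM6 (NM_005915, chromosome 2, 135839626 to 135876443, minus strand, 17 exons), a subunit of the replicative helicase, had 945, 917 and 976 normalized counts in the knockdown, against 2329, 2577 and 2500.4 in the scrambled libraries. The knockdown libraries lay close together and all far below the scrambled ones, with means of 946 ± 29.7 and 2469 ± 127 (SD, n = 3 each), a log2 change of -1.38 (SE 0.07, limma adjusted p = 3.16e-08). CDT1 (chromosome 16, 88803789 to 88809258, plus strand), which brings the helicase to origins and is held back by geminin, had 2079, 1671 and 1789.9 normalized counts in the knockdown, against 4254, 3462 and 4047 in the scrambled libraries. The lowest scrambled library was well above the highest knockdown library, and the log2 change was -1.09 (SE 0.10, limma adjusted p = 1.64e-06). CDC6, the ATPase that works with CDT1 in loading, had 511, 547 and 599 normalized counts in the knockdown, against 923, 1039 and 899.8 in the scrambled libraries (log2 change -0.79, SE 0.09, limma adjusted p = 1.91e-05). MCM5, another helicase subunit, had 1648, 1548 and 1708 normalized counts in the knockdown, against 2611, 2355 and 2239.6 in the scrambled libraries (log2 change -0.55, SE 0.08, limma adjusted p = 9.57e-05). The groups did not overlap in either gene.

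The other tested licensing rows were ORC4 and ORC5, subunits of the origin recognition complex, and a low row of the helicase subunit MCM7, and none of them was called. ORC5 had 128, 162 and 143 normalized counts in the knockdown, against 81.7, 126 and 128 in the scrambled libraries, a log2 change of 0.39 (limma adjusted p = 0.0985). Its groups were apart by a narrow margin, and it was called higher with equal totals and with the replicate block (limma adjusted p = 0.0262 and 0.0376, where the alternatives ran from 0.0261 to 0.386). ORC4 and MCM7 had log2 changes of -0.02 and 0.22 with overlapping groups at means of 15.1 to 34.2 normalized counts. The MCM7 row is a single transcript of a gene with several, and MCM2, MCM3 and MCM4 were not analysed here.

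Of 4 tested genes for turning on the helicase 3 fell, and all 3 encode GINS subunits. GINS2 had 184, 156 and 154 normalized counts in the knockdown, against 310.1, 408 and 339.6 in the scrambled libraries (log2 change -1.09, SE 0.13, limma adjusted p = 2.31e-05). GINS1 had 612, 597 and 536 in the knockdown, against 975, 1057 and 946 in the scrambled libraries (log2 change -0.77, SE 0.09, limma adjusted p = 1.35e-05). GINS2 was thus lower by more than GINS1 on the log2 scale, although both belong to the same complex, and that difference was not tested. GINS4 had 561, 529 and 546 in the knockdown, against 674, 836 and 647 in the scrambled libraries (log2 change -0.39, SE 0.10, limma adjusted p = 0.00749). With equal totals GINS4 was not called (log2 change -0.22, limma adjusted p = 0.0958, where the alternatives ran from 0.00127 to 0.0958), and 33.1% of its exon bases overlap exons annotated on the opposite strand. TOPBP1, which helps origins to fire and activates ATR, had 953, 1018 and 855 in the knockdown, against 868, 1158 and 1014 in the scrambled libraries, with overlapping groups (log2 change -0.10, limma adjusted p = 0.472).

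All 6 tested rows of the replicative polymerases and primase had a negative log2 change, from -0.61 to -0.16, and 3 passed the test. POLE (chromosome 12, 132623762 to 132687342, minus strand, 49 exons), the catalytic subunit of the leading strand polymerase epsilon, had 1191, 1073 and 1347 normalized counts in the knockdown, against 1702, 1946 and 1589 in the scrambled libraries (log2 change -0.54, SE 0.10, limma adjusted p = 0.000680). Its accessory subunit POLE4 had 205, 260.0 and 205 in the knockdown, against 312, 324 and 386 in the scrambled libraries (log2 change -0.61, SE 0.13, limma adjusted p = 0.00193). PRIM1, the catalytic subunit of primase, had 294, 288 and 269 in the knockdown, against 347, 452 and 425 in the scrambled libraries (log2 change -0.51, SE 0.12, limma adjusted p = 0.00281). Of the exon bases of PRIM1, 26.5% are shared with same-strand exons of AC117378.1 and NACA. The groups were apart in POLE, POLE4 and PRIM1. The partners of PRIM1 in the polymerase alpha complex, POLA1, POLA2 and PRIM2, had log2 changes of -0.21, -0.19 and -0.16 without a call (limma adjusted p = 0.0981, 0.229 and 0.259). In POLA1 and PRIM2 every knockdown library was nevertheless below every scrambled one.

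Clamp loading, single-strand binding and lagging strand genes fell in 5 of 6 tested rows. DSCC1 (NM_024094, chromosome 8, 119833976 to 119855894, minus strand), a subunit of the clamp loader that also serves sister chromatid cohesion, had 49.9, 47.5 and 51.6 normalized counts in the knockdown, against 249, 256 and 249 in the scrambled libraries. It had the lowest log2 change of all tested members, -2.32 (SE 0.14, limma adjusted p = 7.90e-08), and the scrambled mean was 5.06 times the knockdown mean. RPA1, the large subunit of the protein that coats single-stranded DNA, had 2044, 1945 and 1702 in the knockdown, against 2935, 3163 and 3006 in the scrambled libraries (log2 change -0.68, SE 0.08, limma adjusted p = 1.92e-05). RPA3, a small subunit of the same protein, had 417, 443 and 329 in the knockdown, against 399, 576 and 418 in the scrambled libraries, with overlapping groups and no call (log2 change -0.22, limma adjusted p = 0.24). The RFC3 row NM_002915, a subunit of the canonical clamp loader, had 157, 136 and 136 in the knockdown, against 192, 233 and 229 in the scrambled libraries (log2 change -0.60, SE 0.13, limma adjusted p = 0.00245).

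Both enzymes that finish lagging strand fragments were lower. FEN1, which trims the flap of each fragment, had 2148, 2172 and 2259 normalized counts in the knockdown, against 2926, 3059 and 2599.9 in the scrambled libraries (log2 change -0.38, SE 0.08, limma adjusted p = 0.00129). LIG1, the ligase that joins the fragments, is present with a non-coding transcript record (NR_110296), which had 21.5, 23.7 and 23.7 in the knockdown, against 45, 54.9 and 55.4 in the scrambled libraries (log2 change -1.13, SE 0.24, limma adjusted p = 0.00149). The protein-coding transcripts of LIG1 were not analysed here. Of the 2 nucleotide supply genes, TYMS, which makes thymidylate, had 114, 138 and 84.6 in the knockdown, against 203, 231 and 186 in the scrambled libraries (log2 change -0.90, SE 0.18, limma adjusted p = 0.00104). The exons of TYMS overlap antisense exons of ENOSF1 and TYMSOS over 64.6% of their bases, and as no source used here states the strand setting, their reads cannot be told apart. RRM1, the large subunit of ribonucleotide reductase, had 1126, 1223 and 992 in the knockdown, against 1079, 1369.6 and 1126 in the scrambled libraries, and was not called (log2 change -0.09, limma adjusted p = 0.480).

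**Figure D2:**
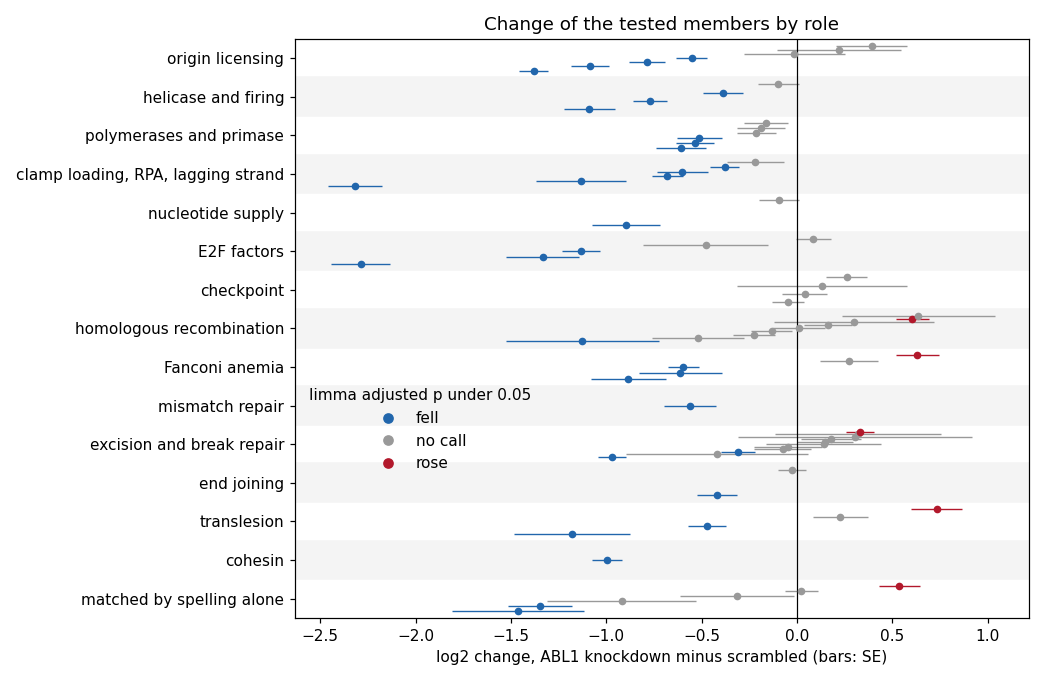
Log2 change of each of the 73 tested rows (x axis, ABL1 knockdown minus scrambled), by role (y axis); points are estimates, bars their SE, and colours mark the limma call. No called point of the replication roles, from origin licensing to E2F factors, lies right of 0, and the 5 called rises stand in homologous recombination, Fanconi anemia, excision and break repair, translesion and the rows matched by spelling alone.

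Among the E2F factors, 3 of 5 fell. E2F1 (NM_005225, chromosome 20, 33675477 to 33686385, minus strand), an activator of S phase genes, had 1063, 920.0 and 1204 normalized counts in the knockdown, against 2482, 2144 and 2327 in the scrambled libraries (log2 change -1.13, SE 0.10, limma adjusted p = 1.42e-06). E2F2 (NM_004091, chromosome 1, 23505212 to 23531233, minus strand), a second activator, had 41.1, 48.6 and 47.5 in the knockdown, against 238, 214 and 228 in the scrambled libraries (log2 change -2.29, SE 0.15, limma adjusted p = 1.65e-07). E2F7, an atypical member that represses E2F targets, had 43.0, 33.9 and 47.5 in the knockdown, against 108, 108 and 100.4 in the scrambled libraries (log2 change -1.33, SE 0.19, limma adjusted p = 9.23e-05). Activators and a repressor of the family were thus lower in the same libraries, and the groups were apart in all 3. E2F3, the remaining activator, had 13.7, 14.7 and 22.7 in the knockdown, against 20.0, 30.3 and 21.6 in the scrambled libraries, with no call at this low count (log2 change -0.48, SE 0.33, limma adjusted p = 0.241). E2F4, which acts mostly as a repressor in resting cells, had 1139, 1031 and 1214 in the knockdown, against 1098, 1121 and 969 in the scrambled libraries (log2 change 0.09, SE 0.09, limma adjusted p = 0.452). With equal totals E2F4 was called higher (log2 change 0.26, limma adjusted p = 0.0222, where the alternatives ran from 0.0222 to 0.884).

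Promoters of 65 of the 73 member genes were found in RefSeq (GRCh38.p14), each with 250 bases before and 50 bases after the gene start. They were searched on both strands for the E2F motif words TTTCCCGC, TTTCGCGC, TTTGCCGC and TTTGGCGC, whose matches may share bases. At least 1 of these words stood in 22 of 62 promoters of tested members (35.5%), in 5.04% of the 6390 promoters of all tested genes and in 3.33% of the 27305 promoters in the table. It stood in 15 of 27 fallen members (55.6%), in 6 of 30 without a call (20%) and in 1 of 5 risen members, POLI. Read the other way, 15 of the 22 members with a match fell and 1 rose (median log2 change -0.61), and 12 of the 40 without a match fell and 4 rose (median -0.03). Over all tested genes, members included, 33.2% of those with a match fell and 18.6% rose. Of those without a match, 27.6% fell and 25.4% rose. Of the 28 matches in members, 17 began between -60 and 25 bases from the gene start. That window was not planned, and its share of matches was not computed for other promoters. Other words were less unevenly spread, with CCAAT in 46.8% of the members' promoters and 37% of those of all tested genes, TTTGAA in 12.9% and 10.2%, and CACGTG in 14.5% and 10.4%. A match is a run of letters and was not tested for binding in these cells. The promoters of 6 fallen replication genes with matches are printed 5′ to 3′ on the gene's strand, with the matched letters in capitals, because these genes had the lowest log2 changes among the licensing, GINS and activator E2F members with a match. They lie at chr2:135876394-135876693 (MCM6, minus strand), chr16:88803539-88803838 (CDT1, plus), chr17:40287629-40287928 (CDC6, plus), chr16:85688905-85689204 (GINS2, minus), chr20:33686336-33686635 (E2F1, minus) and chr1:23531184-23531483 (E2F2, minus).
MCM6: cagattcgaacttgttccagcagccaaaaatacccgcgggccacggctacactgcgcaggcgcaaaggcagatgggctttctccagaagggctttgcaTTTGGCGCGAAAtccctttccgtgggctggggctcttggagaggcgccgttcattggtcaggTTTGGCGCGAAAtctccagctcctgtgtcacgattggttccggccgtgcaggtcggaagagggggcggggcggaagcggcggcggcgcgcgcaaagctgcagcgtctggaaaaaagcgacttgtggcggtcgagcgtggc
CDT1: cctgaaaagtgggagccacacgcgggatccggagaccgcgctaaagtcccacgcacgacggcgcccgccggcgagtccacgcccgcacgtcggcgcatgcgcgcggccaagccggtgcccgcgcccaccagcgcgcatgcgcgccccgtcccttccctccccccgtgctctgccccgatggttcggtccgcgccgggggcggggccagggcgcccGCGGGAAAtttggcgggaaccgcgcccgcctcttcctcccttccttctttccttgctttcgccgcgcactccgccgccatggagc
CDC6: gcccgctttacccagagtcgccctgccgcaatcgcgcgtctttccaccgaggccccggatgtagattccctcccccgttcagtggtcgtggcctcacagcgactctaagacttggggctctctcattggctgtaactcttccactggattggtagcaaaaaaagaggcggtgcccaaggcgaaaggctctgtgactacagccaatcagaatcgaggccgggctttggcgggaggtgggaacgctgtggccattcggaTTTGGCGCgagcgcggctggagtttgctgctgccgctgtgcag
GINS2: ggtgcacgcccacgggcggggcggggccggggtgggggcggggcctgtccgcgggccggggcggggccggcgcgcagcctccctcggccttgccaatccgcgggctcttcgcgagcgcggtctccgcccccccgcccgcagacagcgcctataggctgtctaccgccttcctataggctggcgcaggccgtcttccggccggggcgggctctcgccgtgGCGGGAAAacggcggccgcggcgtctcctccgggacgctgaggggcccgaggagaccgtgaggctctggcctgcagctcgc
E2F1: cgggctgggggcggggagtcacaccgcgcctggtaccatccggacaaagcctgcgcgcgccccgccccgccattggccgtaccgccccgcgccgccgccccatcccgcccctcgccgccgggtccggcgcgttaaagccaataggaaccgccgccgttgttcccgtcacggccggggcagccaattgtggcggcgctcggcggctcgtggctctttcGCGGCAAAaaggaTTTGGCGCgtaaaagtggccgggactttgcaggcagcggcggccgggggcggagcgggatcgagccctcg
E2F2: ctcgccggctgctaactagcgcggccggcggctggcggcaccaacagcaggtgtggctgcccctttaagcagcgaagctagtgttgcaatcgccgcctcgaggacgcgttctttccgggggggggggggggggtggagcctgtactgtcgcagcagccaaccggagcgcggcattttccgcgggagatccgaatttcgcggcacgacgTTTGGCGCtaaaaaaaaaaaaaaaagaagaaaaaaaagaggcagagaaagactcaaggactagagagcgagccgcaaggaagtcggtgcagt
The MCM6 promoter held 4 matches in 2 overlapping pairs that began at -152, -148, -90 and -86 from the gene start. E2F1 held 2 matches, at -33 and -20, and the others held 1 each, at -35 in CDT1, 8 in CDC6, -31 in GINS2 and -42 in E2F2.

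**Figure D3:**
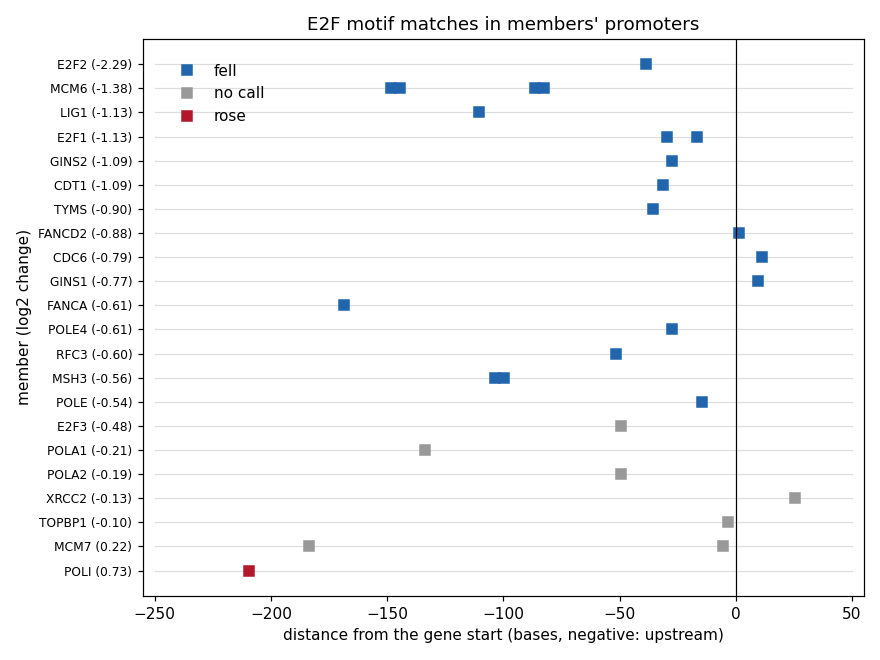
Centres of matches to the E2F motif words (squares) in the promoters of the 22 tested members that hold any, by distance from the gene start in bases (x axis), with members ordered by log2 change in parentheses (y axis). Of the 28 matches, 17 began between -60 and 25 bases from the start, a share not computed for other promoters. POLI, the 1 risen member, has its match at -213.

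The 12 members that fell at least 2-fold were 8 replication members, RAD54L and POLN among the repair members, and MCM8-AS1 and ERCC6L. Within each of them, the knockdown libraries were all below the scrambled ones. RAD21 lay just outside, with a log2 change of -0.999.

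**Figure D4:**
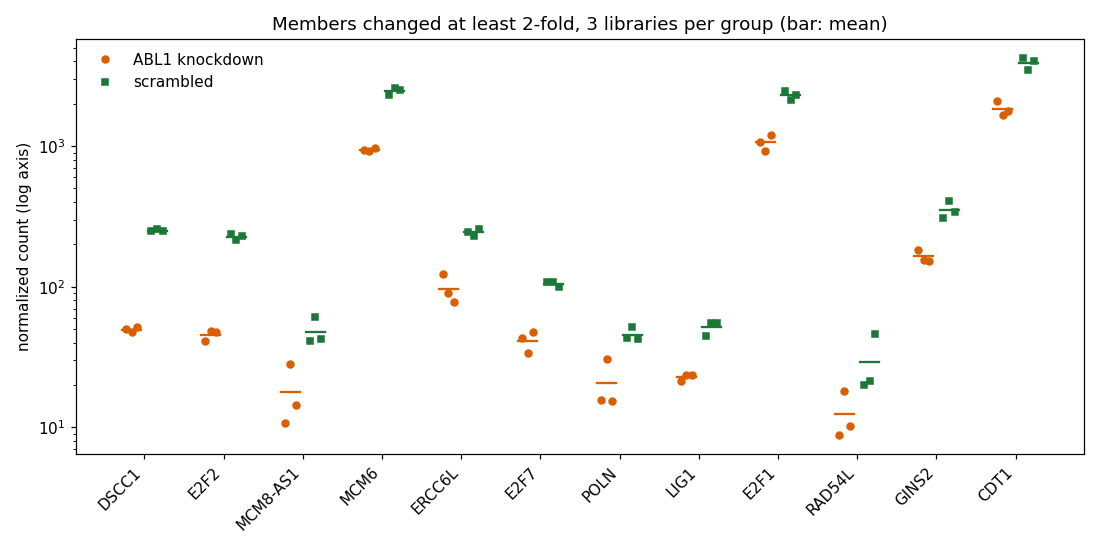
Normalized counts (log axis) of the 12 members lower by at least 2-fold in the ABL1 knockdown, with 3 libraries per group as points and the group mean as a bar. No knockdown point of a member reaches its scrambled points, and the gap is narrowest for RAD54L, at 18.1 in the highest knockdown and 20.0 in the lowest scrambled library.

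No checkpoint row passed the test. ATM, the kinase that answers strand breaks, had 874, 1013 and 960.5 normalized counts in the knockdown, against 934, 995 and 1014 in the scrambled libraries (log2 change -0.05, SE 0.08, limma adjusted p = 0.654). ATR, the kinase that answers stalled forks, had 282, 260.0 and 302 in the knockdown, against 253, 266 and 303 in the scrambled libraries (log2 change 0.04, SE 0.12, limma adjusted p = 0.802). The groups overlapped in both kinases. The more abundant of 2 RAD9A rows, NM_004584, a subunit of the checkpoint clamp, had 340.4, 410.3 and 400.3 in the knockdown, against 329, 304 and 325 in the scrambled libraries (log2 change 0.26, SE 0.11, limma adjusted p = 0.0591). It was called higher with equal totals, with quantile normalization, with the replicate block and without knockdown replicate 1 (limma adjusted p = 0.00556, 0.0243, 0.0477 and 0.0335, where the alternatives ran from 0.00556 to 0.17).

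Homologous recombination genes, which repair breaks from a sister chromatid, gave 1 rise and 1 fall among 9 tested rows. RAD50, part of the complex that holds and processes broken ends, had 756, 807 and 729 normalized counts in the knockdown, against 519, 491 and 496 in the scrambled libraries (log2 change 0.60, SE 0.09, limma adjusted p = 8.15e-05). Of its exon bases, 90.6% are shared with a same-strand gene model, AC116366.3. RAD54L, a motor protein that helps strand exchange, had 8.80, 18.1 and 10.3 in the knockdown, against 20.0, 21.3 and 46 in the scrambled libraries (log2 change -1.13, SE 0.40, limma adjusted p = 0.0325). This call was lost with equal totals and without the variance trend (limma adjusted p = 0.0634 and 0.0591), and at a threshold of 0.01. It was also lost without knockdown replicate 1, knockdown replicate 3 or scrambled replicate 3 (limma adjusted p = 0.0925, 0.0732 and 0.175, where the alternatives ran from 0.0142 to 0.175). LRRC41, which overlaps 25.9% of the exon bases of RAD54L on the opposite strand, rose (log2 change 0.42). BRCA2 and XRCC2, both needed for recombination, had every knockdown library below every scrambled one but small, uncalled differences. BRCA2 had 251, 297 and 279.6 in the knockdown, against 302, 337 and 328 in the scrambled libraries (log2 change -0.23, limma adjusted p = 0.105). The helicase gene BRIP1 had a log2 change of 0.16 and RAD54L2 of 0.01, both without a call.

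The Fanconi anemia genes, whose products unhook DNA crosslinks, fell in 3 of 5 rows and rose in 1. FANCG, a core complex subunit, had 790.4, 746 and 789 normalized counts in the knockdown, against 1248, 1115 and 1158 in the scrambled libraries (log2 change -0.60, SE 0.08, limma adjusted p = 5.32e-05). FANCD2, which the core complex marks with ubiquitin, had 56.7, 68.9 and 65.0 in the knockdown, against 103, 156 and 102 in the scrambled libraries (log2 change -0.88, SE 0.20, limma adjusted p = 0.00243). FANCF, another core complex subunit with a single exon, had 495, 529 and 549.9 in the knockdown, against 391, 325 and 304 in the scrambled libraries (log2 change 0.63, SE 0.11, limma adjusted p = 0.000443). Subunits of 1 complex thus lay on opposite sides, with FANCG lower and FANCF higher in every knockdown library. FANCA, also of the core complex, had 51.8, 50.9 and 65.0 in the knockdown, against 79.2, 113 and 69.4 in the scrambled libraries (log2 change -0.61, SE 0.22, limma adjusted p = 0.0315). The FANCA row is a single transcript with 11 exons, of a gene with 4 RefSeq transcripts. The FANCA call was lost with equal totals and without the variance trend (limma adjusted p = 0.104 and 0.0533), and at a threshold of 0.01. It was also lost without knockdown replicate 1, knockdown replicate 2 or scrambled replicate 2 (limma adjusted p = 0.0766, 0.0839 and 0.148, where the alternatives ran from 0.0161 to 0.148). FANCE had 275, 235 and 327 in the knockdown, against 275, 203 and 214 in the scrambled libraries, without a call (log2 change 0.27, limma adjusted p = 0.148). It was called higher with equal totals and without scrambled replicate 1 (limma adjusted p = 0.0214 and 0.0432, where the alternatives ran from 0.0214 to 0.45).

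Among 11 tested excision and break repair rows, PARP1 and ERCC2 fell and XRCC1 rose. PARP1 (NM_001618, chromosome 1, 226360691 to 226408093, minus strand, 23 exons), which senses strand breaks and builds poly(ADP-ribose), had 4279, 3911 and 4129.7 normalized counts in the knockdown, against 8251, 8399 and 7526 in the scrambled libraries (log2 change -0.97, SE 0.07, limma adjusted p = 3.52e-07). XRCC1, the scaffold that poly(ADP-ribose) brings to breaks, had 1993, 1897 and 2032 in the knockdown, against 1657, 1534 and 1520.0 in the scrambled libraries (log2 change 0.33, SE 0.07, limma adjusted p = 0.00231). The sensor and the scaffold of the same repair route therefore lay on opposite sides in every library. ERCC2, a helicase of the transcription and excision repair factor TFIIH, had 513, 479 and 548 in the knockdown, against 656, 628 and 623 in the scrambled libraries (log2 change -0.31, SE 0.09, limma adjusted p = 0.0113). With equal totals its log2 change was -0.14 and with quantile normalization -0.20, both without a call (limma adjusted p = 0.204 and 0.0762, where the alternatives ran from 0.00683 to 0.204). The other 8 rows, among them the nucleases ERCC4 and ERCC5, the ligase LIG3 and both transcripts of the uracil glycosylase UNG, had log2 changes from -0.42 to 0.32 and no call.

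Of the 2 end joining genes, POLQ, the polymerase of an error-prone end joining route, had 324, 383 and 397 normalized counts in the knockdown, against 489, 509 and 475 in the scrambled libraries (log2 change -0.42, SE 0.10, limma adjusted p = 0.00473). That call was lost with equal totals (log2 change -0.25, limma adjusted p = 0.0685, where the alternatives ran from 0.00113 to 0.0685). XRCC5, a Ku subunit of classical end joining, had 3838, 3863 and 3613 in the knockdown, against 3579, 4104 and 3861 in the scrambled libraries, with overlapping groups (log2 change -0.03, SE 0.07, limma adjusted p = 0.781). MSH3, the 1 mismatch repair row, whose product recognises small loops of unpaired bases, had 129, 121 and 134 in the knockdown, against 168, 208 and 193 in the scrambled libraries (log2 change -0.56, SE 0.14, limma adjusted p = 0.00408). The groups were apart in MSH3 and POLQ.

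Translesion genes, which let forks pass damaged bases, moved both ways. RAD18, the ubiquitin ligase that marks the sliding clamp for polymerase exchange, had 363, 373 and 417 normalized counts in the knockdown, against 502, 574 and 522 in the scrambled libraries (log2 change -0.47, SE 0.10, limma adjusted p = 0.00170). POLN, polymerase nu, had 15.7, 30.5 and 15.5 in the knockdown, against 43.4, 51.6 and 42.2 in the scrambled libraries (log2 change -1.18, SE 0.30, limma adjusted p = 0.00574). POLI, polymerase iota, had 331, 365 and 292 in the knockdown, against 181, 183 and 231 in the scrambled libraries (log2 change 0.73, SE 0.13, limma adjusted p = 0.000563), the highest log2 change among the tested members. Its relative POLK, polymerase kappa, had 251, 246 and 192 in the knockdown, against 174, 219.7 and 193 in the scrambled libraries, without a call (log2 change 0.23, limma adjusted p = 0.202).

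RAD21 (chromosome 8, 116845934 to 116874776, minus strand), the subunit that closes the cohesin ring around sister chromatids, had 3225, 3302 and 2921 normalized counts in the knockdown, against 5788, 6730.4 and 6369.8 in the scrambled libraries (log2 change -0.999, SE 0.08, limma adjusted p = 6.02e-07). Together with DSCC1, both tested members that serve sister chromatid cohesion were lower in every knockdown library. Among the 6 rows that match by spelling alone, ERCC6L, a translocase that acts on DNA bridges in mitosis, had 123, 90.4 and 77.4 in the knockdown, against 246, 229 and 258 in the scrambled libraries (log2 change -1.35, SE 0.17, limma adjusted p = 2.86e-05). MCM8-AS1, a non-coding RNA, had 10.8, 28.3 and 14.4 in the knockdown, against 40.9, 60.5 and 42.2 in the scrambled libraries (log2 change -1.46, SE 0.35, limma adjusted p = 0.00356). ERCC6L2, a relative of ERCC6L, had 279, 295 and 272 in the knockdown, against 191, 196 and 195 in the scrambled libraries (log2 change 0.54, SE 0.11, limma adjusted p = 0.00128). MCM3AP, an mRNA export factor, had 1183, 1053 and 1143 in the knockdown, against 1148, 1172 and 1011 in the scrambled libraries (log2 change 0.02, limma adjusted p = 0.853). TYMSOS, named for its place opposite TYMS, had a log2 change of -0.92 without a call.

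**Figure D5:**
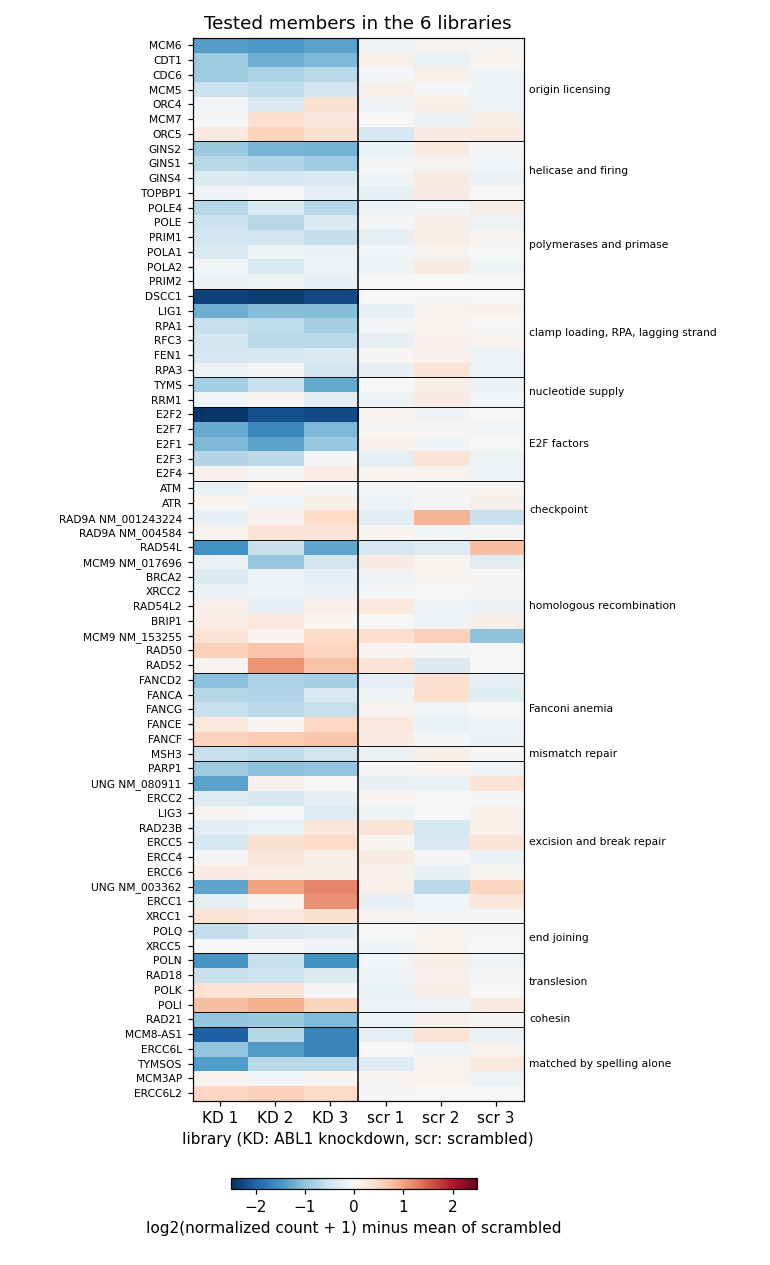
Tested members reported by name (y axis, grouped by role) in each of the 6 libraries (x axis, ABL1 knockdown left, scrambled right), coloured by log2(normalized count + 1) minus the mean of the scrambled libraries. In the rows of MCM6, DSCC1, E2F2 and RAD21 all 3 knockdown libraries are evenly blue, while RAD54L, UNG and MCM9 (NM_153255) vary between libraries of a group.

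The share of members that fell also differed with the number of reads and of transcripts. Among members with a mean of at least 100 normalized counts 25 of 52 fell (48.1%), against 34.5% of all such rows, and at a mean of at least 1000 it was 9 of 14 (64.3%), against 40.5%. Below 100, 7 of 21 tested members fell (33.3%), against 16.7% of all such rows. Among members of genes with 1 RefSeq transcript 22 of 35 fell (62.9%), against 31.0% of all such rows, and among those with several 10 of 38 fell (26.3%), against 23.0%. Of the replication rows with 1 RefSeq transcript 14 of 16 fell and 0 rose, and of such repair and checkpoint rows 6 of 14 fell (42.9%) and 3 rose (21.4%), against 25.2% of all such rows that rose. The sources used here do not state how reads in exons shared by several transcripts were assigned, so a row of such a gene measures an unknown part of it. By the GENCODE 29 annotation, 12 members shared over 10% of their exon bases with exons on the opposite strand, among them 5 fallen members (TYMS, GINS4, RAD54L, MCM8-AS1 and ERCC2) and the risen XRCC1 and FANCF. KLC3, which overlaps 13% of the exon bases of ERCC2, fell as well (log2 change -0.40). On the same strand 11 members shared exon bases with another gene model, among them RAD50, PRIM1 and POLN.

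Further genes of the same pathways came from lists of genes outside the spelling rule. Their counts stand against 27.4% of all tested rows that fell and 24.5% that rose, and with equal totals against 19.6% and 34.6%. Of 23 other replication and chromatin assembly genes 14 fell and 0 rose, with a median log2 change of -0.39. With equal totals 9 fell and 2 rose. TOP2A, the topoisomerase that untangles finished chromosomes, had 3212, 3632 and 2940.2 normalized counts in the knockdown, against 8723, 9875 and 9224 in the scrambled libraries (log2 change -1.51, limma adjusted p = 4.27e-08). CHAF1A and ASF1B, which place histones on new DNA, had log2 changes of -1.35 and -1.22, and RNASEH2A, which removes RNA from DNA, of -0.99. Of 15 regulators of the G1 to S transition 6 fell and 1 rose, with a median of -0.26, and 2 rose without knockdown replicate 1 or scrambled replicate 2. CCND1, cyclin D1, had 2171, 2167 and 2153 in the knockdown, against 6983, 6539.9 and 6795 in the scrambled libraries (log2 change -1.65, limma adjusted p = 3.05e-09). The cyclin gene CCNA2 fell by 0.93 and the kinase gene CDK4 by 0.34 on the log2 scale, MYC by 1.96, and RB1, which holds E2F factors back, rose by 0.34. The remaining falls were the kinase inhibitor gene CDKN1B and the cyclin gene CCNE2, with log2 changes of -0.37 and -0.81 (limma adjusted p = 0.00241 and 0.0420). With equal totals 3 of the 15 G1 to S regulators fell and 4 rose. Of 29 other repair genes 11 fell and 4 rose, with a median of -0.15, and with equal totals 6 fell and 6 rose. The falls included the ubiquitin ligase RNF168 (-1.13), the histone H2AFX (-1.27) and RMI1 (-1.48), and TDG, a glycosylase of base excision repair, rose (0.92), as did POLB (0.59), RECQL5 (0.44) and ALKBH3 (0.82).

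Markers of cell types were measured beside these counts. Hepatocyte markers, of which 6 of 9 had a row, summed to 395265 to 440554 normalized counts in the knockdown libraries and to 461666 to 521006 in the scrambled libraries. Of the 5 tested hepatocyte markers 3 fell and 0 rose, where 27.4% of all tested rows fell. TF, ALB and APOB had log2 changes of -0.44, -0.42 and -0.20 (limma adjusted p = 0.000626, 0.00153 and 0.0466). AFP, the largest of the hepatocyte markers, was not called (log2 change -0.10, limma adjusted p = 0.454), nor was TTR (log2 change 0.19, limma adjusted p = 0.0941). All rows of the table summed to 7.52e+06 to 7.78e+06 normalized counts in the knockdown and 8.57e+06 to 8.74e+06 in the scrambled libraries. The marker sums were not compared as shares of these totals. Fibroblast markers (6 of 9 with a row, 4 rose and 1 fell) summed to 13259 to 14609 in the knockdown and 8912 to 9908 in the scrambled libraries. Most of these counts came from COL1A2, which rose (log2 change 0.62), while COL1A1 fell (log2 change -1.03). Endothelial markers (4 of 6 with a row) summed to 125 to 147 in the knockdown and 176 to 204 in the scrambled libraries. Immune markers (2 of 7 with a row, nearly all counts from LYZ) summed to 6526 to 7467 in the knockdown and 5679 to 6298 in the scrambled libraries. Biliary markers (5 of 6 with a row) summed to 5744 to 6197 in the knockdown and 8416 to 9649 in the scrambled libraries. No listed marker with a row was at 0 in every library. The part of these markers in the members' changes was not tested.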

How the data were processed

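Total RNA of 3 ABL1 knockdown and 3 scrambled Huh7 libraries was measured, and each library was assigned to its group from its title. The authors deposited 1 signal value per RefSeq transcript row and library. The submitters' processing notes name HISAT2 2.0.4, HTSeq 0.6.1 and build hg38, while annotation, strand setting and row filter are not stated in the sources used here. The values show that the deposited signal is a scaled square root of a whole read number plus 0.375. Squaring and unscaling gave whole reads within 0.05 for 100% of rows in each library, 6651413 to 10487862 per library. Normalized counts keep the authors' scale factors. No value column was left without a sample.

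Rows averaging 10 or more normalized counts were tested with limma 3.58.1 in R 4.3.3 (two-sided, eBayes with trend) on log2(normalized count + 1), which understates changes at low counts. P-values were adjusted by Benjamini-Hochberg over all 8600 tested rows, with a threshold of 0.05. A count-model test was not run on the recovered reads, and voom weights served as the alternative.

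Members and lists were chosen with earlier results of these data known. Full values are given, per role, for up to 4 called members with the smallest p and the member with the highest mean count, and for some further members picked after their values were seen. For other lists, up to 4 called genes with the smallest p are named, and so are all rises of those lists and all falls of the G1 to S regulators. The values of 1 member are not reported here. Gene positions and promoters are from RefSeq (GRCh38.p14) and exons from GENCODE 29. No pair of libraries was a duplicate (chi-square divided by its degrees of freedom was 5.50 to 9.70 within groups). On simulated data of this comparison, with 8597 rows tested, 38%, 64%, 80% and 90% of rows changed 1.25-, 1.5-, 2- and 4-fold were recovered (50 rows each), and 4 of 140 calls were false. The simulation changed only these rows, evenly up and down, with a common spread and known scale factors. In the data 51.9% of tested rows were called, so these rates need not hold there. Read totals limit the precision of low rows. Alternatives covered the pseudocount, filter, scaling, variance model, threshold, replicate block, summing per symbol and leaving out each library.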

Additional observations from a re-analysis of the deposited data

How the results depend on the processing

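Under 18 alternatives, 32 of the 37 called members kept their call in each, and 0 changed direction; ERCC2, FANCA, GINS4, POLQ and RAD54L lost theirs in at least 1, and 8 of 36 others gained a call in at least 1. The members' median log2 change was -0.27 with a pseudocount of 5, -0.22 with no filter, -0.14 with equal totals and -0.20 with quantile normalization, and its distance from the median of all rows ran from -0.33 to -0.22. Leaving out 1 library at a time gave medians of -0.32 to -0.25, 31 to 32 falls and 5 to 6 rises among the members, 19 falls among the replication members, and 1 to 2 rises among the G1 to S regulators.

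With equal totals 11 members rose, 6 repair members fell and 8 rose, 2 replication members rose, 9 other replication genes fell and 2 rose, 3 G1 to S regulators fell and 4 rose, and 6 other repair genes fell. With quantile normalization 2 G1 to S regulators rose. Without the variance trend, and at a threshold of 0.01, 6 other repair genes fell. The scalings differ by construction in where they set the middle of all rows, and the cause of the other shifts was not tested.

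Same-numbered libraries share a number but no stated origin: the correlations of their deviations were 0.047, 0.077 and 0.077, and not each library correlated best with its own number. With the replicate block 32 members fell, 7 rose, and 1 replication member, ORC5, rose. Members below about 30 normalized counts, such as RAD54L, are limited by depth.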
